A study of Mus musculus with 6 samples.

Results

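The genes described here are 42 genes of the vascular and lymphatic lining and of the signals that make vessels grow, among the 22180 genes measured in kidneys of diabetic and non-diabetic mice. They were taken from a list of names, and all 42 have a probe set that names them alone. Where a gene had several such probe sets, the one with the highest mean over the 6 arrays was used. RNA from kidneys of 3 db/db and 3 db/m males, 22 weeks old and on the C57BL/KsJ background, was hybridized to Affymetrix arrays, 1 for each animal. The db/db mice carry the diabetes allele of the leptin receptor gene on both chromosomes and are a model of obesity with type 2 diabetes. The db/m mice are littermates that carry a single copy of it and are not diabetic. The allele acts in every tissue, so an effect on vessels in the kidney cannot be told apart from that of body weight or blood glucose. The sample labels name the tissue as kidney and the methods as renal cortex. The comparison asks which of these genes differ in level in the diabetic kidney, a tissue in which the fine vessels are a known site of damage.

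Endothelial cells line the glomerular capillaries, the peritubular capillaries, the arterioles and the lymphatic vessels of the kidney. They are kept by vascular endothelial growth factor (VEGF), which podocytes and tubule cells secrete and which acts on the receptors encoded by Kdr and Flt1. Flt4 encodes the receptor for the lymphatic ligands of the VEGF family. Angiopoietins act through the receptor TIE2, encoded by Tek, and Notch signals from Dll4 shape arteries and restrain sprouting. ETS factors such as ERG and FLI1 and the SOX factors SOX7, SOX17 and SOX18 hold the endothelial programme of transcription, while PROX1 sets the identity of lymphatic endothelium.

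Promoter sequences are shown for Prox1 and Robo4, the members with the lowest p in each direction, and for Kdr, the main VEGF receptor gene, whose groups overlapped. They run 5′ to 3′ from 250 bases before to 50 bases after an annotated start in RefSeq (GRCm38.p6), and Prox1 has 2 such starts, between which the array signal was not resolved. Capitals mark the core that ETS factors recognize, GGAA or its reverse complement TTCC, and in Kdr also the longer match CCGGAA, read on the other strand as TTCCGG.
Prox1, start 1, chr1:190170778-190171077, minus strand: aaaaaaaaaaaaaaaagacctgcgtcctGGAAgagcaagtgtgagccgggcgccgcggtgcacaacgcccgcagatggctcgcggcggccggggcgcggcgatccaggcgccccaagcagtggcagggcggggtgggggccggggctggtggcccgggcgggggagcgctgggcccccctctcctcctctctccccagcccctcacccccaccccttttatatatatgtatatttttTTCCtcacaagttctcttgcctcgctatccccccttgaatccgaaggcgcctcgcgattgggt
Prox1, start 2, chr1:190169466-190169765, minus strand: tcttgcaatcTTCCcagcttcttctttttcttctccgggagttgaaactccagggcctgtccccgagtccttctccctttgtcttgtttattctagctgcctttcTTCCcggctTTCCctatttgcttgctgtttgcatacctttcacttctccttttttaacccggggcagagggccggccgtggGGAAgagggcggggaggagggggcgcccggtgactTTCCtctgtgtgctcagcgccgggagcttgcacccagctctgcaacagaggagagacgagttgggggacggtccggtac
Robo4, chr9:37401722-37402021, plus strand: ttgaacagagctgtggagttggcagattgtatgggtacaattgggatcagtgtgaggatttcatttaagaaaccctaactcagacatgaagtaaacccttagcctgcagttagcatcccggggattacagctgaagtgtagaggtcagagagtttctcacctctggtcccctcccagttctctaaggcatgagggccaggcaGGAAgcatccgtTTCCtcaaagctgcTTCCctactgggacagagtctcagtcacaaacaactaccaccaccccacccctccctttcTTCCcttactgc
Kdr, chr5:75978406-75978705, minus strand: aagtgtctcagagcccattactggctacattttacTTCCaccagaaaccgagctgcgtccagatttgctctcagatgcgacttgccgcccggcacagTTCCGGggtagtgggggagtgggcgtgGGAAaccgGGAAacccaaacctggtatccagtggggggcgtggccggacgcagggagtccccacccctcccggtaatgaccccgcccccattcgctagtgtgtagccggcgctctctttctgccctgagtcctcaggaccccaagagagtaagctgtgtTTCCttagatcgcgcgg
The core matched 2 and 5 times in the Prox1 windows, 4 times in that of Robo4 and 5 times in that of Kdr. It is in 96% of the 32851 promoter windows of the table, so its presence separates no gene from the others. Of the 42 genes, 23 were matched by symbol, with 28 windows. The longer match CCGGAA was found in 1 of these 28 windows (3.57%), that of Kdr, and in 14.9% of all windows. The motif ACAATG or its reverse complement CATTGT, a match for SOX factors, was found in 3 of the 28 windows (10.7%), those of Calcrl, Erg and Notch4, and in 12.6% of all windows.

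The signals are on the log2 scale after robust multi-array average (RMA) processing by the authors, so a difference of 1 is a 2-fold difference. The median signal of the 6 arrays lay between 3.36 and 3.43, and the number of arrays limits the precision of every value. Nearly all of the listed genes were in the brighter range of the arrays. Of the 42 genes, 1 (Selp) had a mean signal under 3.37, the median over all probe sets, which is 2.38% of them, against 37.1% of all genes. One mouse stood apart in 2 genes of platelets. In db/db replicate 3, Ppbp had a signal of 9.10 against 6.90 and 6.85 in the other db/db mice and 6.66 to 6.87 in db/m mice, and Gp9 had 7.43 against 5.61 and 5.67 in the other db/db mice and 5.32 to 5.47 in db/m mice. Pf4, also of platelets, had 4.53 in that mouse against 3.78 and 3.96 in the other db/db mice and 4.05 to 4.18 in db/m mice, and Itga2b had 4.67, inside the range of the other mice. Results are therefore also given without db/db replicate 3. In RNA of whole tissue, fewer endothelial cells and less RNA per cell cannot be told apart.

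Most of the endothelial genes had close levels in db/db and db/m kidneys. At an adjusted p under 0.05 (limma, Benjamini-Hochberg over all genes), 1 of the 42 genes rose, Prox1, and 0 fell. Over all genes 0.194% rose and 0.289% fell by the same test, 0.482% in all. An unadjusted p under 0.05 was reached by 7 of the 42 (16.7%), namely Prox1, Robo4, Pdpn, Edn1, Gja5, Calcrl and Dll4, where 10.6% of all genes reached it. The signals of the groups did not overlap for 6 of the 42 (14.3%), against 16.8% of all genes. Of these, 5 were higher in db/db mice (Prox1, Pdpn, Edn1, Gja5 and Cldn5), where 9.17% of all genes were, and 1 was lower (Robo4), where 7.62% were. The median log2 fold change (db/db minus db/m) was 0.05 over the 42 genes and 0.0050 over all genes, and 24 of the 42 were positive (57.1%, against 51.2% of all genes). The size of the change had a median of 1.08-fold both in the 42 genes and in all genes. The methods' thresholds (unadjusted p under 0.05 and at least a 1.5-fold change) were passed by Prox1 alone, where 1.02% of all genes passed them upward and 0.807% downward. Without db/db replicate 3, 0 of the 42 genes passed the adjusted test and 5 (11.9%, against 8.85% of all genes in the same fit) had an unadjusted p under 0.05, with Calcrl and Dll4 no longer among them, and the median log2 fold change was -0.0082.

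**Figure D1:**
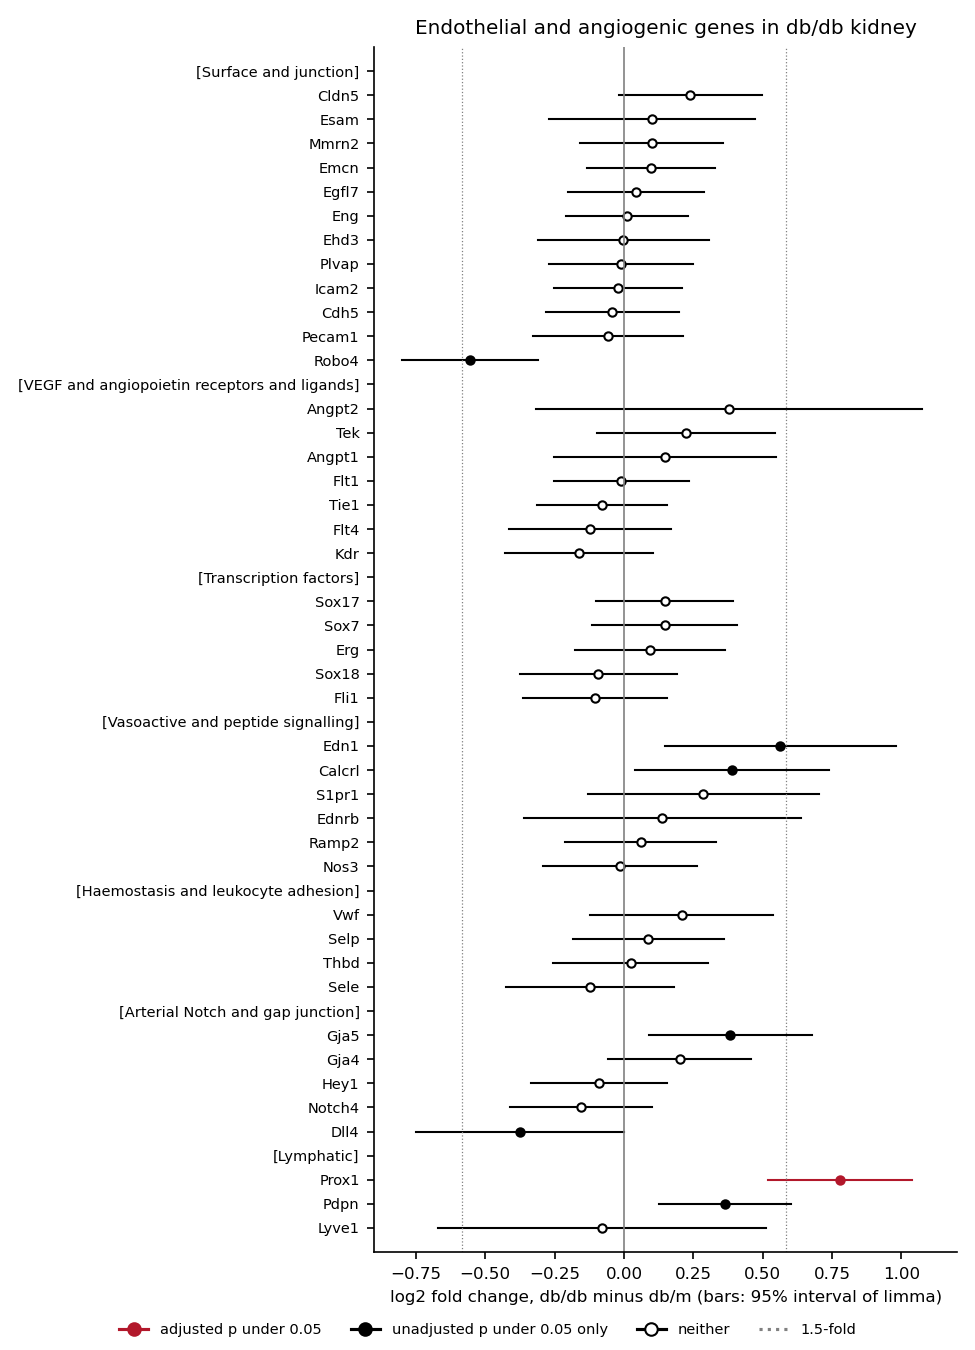
Log2 fold change (db/db minus db/m, x axis) of each of the 42 genes with its 95% interval from limma (3 mice per group), grouped by role. Prox1 is the single gene past the adjusted test (red), and filled black points mark the other 6 with an unadjusted p under 0.05.

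The endothelial markers Pecam1, Cdh5 and Emcn were closely matched between the groups. Pecam1, an adhesion molecule of endothelial contacts, had signals of 7.34, 7.11 and 7.35 in db/db mice and 7.23, 7.27 and 7.48 in db/m mice. Cdh5, which encodes VE-cadherin of the adherens junction, had 8.40, 8.17 and 8.33 in db/db mice and 8.39, 8.28 and 8.36 in db/m mice. Emcn, a sialomucin of the luminal surface, had 9.99, 9.84 and 9.93 in db/db mice and 9.89, 9.83 and 9.75 in db/m mice. The groups overlapped for all 3 genes. The 95% intervals of the log2 fold change were -0.33 to 0.21 for Pecam1, -0.28 to 0.20 for Cdh5 and -0.13 to 0.33 for Emcn, so each excludes a 1.5-fold change in either direction. Markers of the capillary beds did likewise. Ehd3, an endocytic protein that is enriched in glomerular endothelium, averaged 8.36 ± 0.25 in db/db mice and 8.36 ± 0.06 in db/m mice (SD, n = 3 each), with an interval of -0.31 to 0.31. Its db/db spread came from replicate 3, at 8.07 against 8.45 and 8.55. Plvap, which forms the diaphragms of fenestrated peritubular capillaries, averaged 8.02 ± 0.11 in db/db mice and 8.03 ± 0.13 in db/m mice (SD, n = 3 each), with an interval of -0.27 to 0.25.

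Of the other surface and junction genes, Robo4 had the largest difference between the groups. Robo4, a receptor of the roundabout family that stabilizes the endothelial barrier, had signals of 5.47, 5.57 and 5.34 in db/db mice and 5.92, 6.05 and 6.07 in db/m mice. Every db/db mouse was below every db/m mouse. The log2 fold change was -0.55 (standard error 0.11), or 0.681 times the db/m level, with an adjusted p of 0.0809 from limma that did not pass. Its adjusted p stayed between 0.0507 and 0.334 in the 15 alternative settings, and its sign was negative in all 6 fits that leave out a mouse, with log2 fold changes from -0.61 to -0.49. Cldn5, a claudin of endothelial tight junctions, had 4.73, 4.95 and 4.71 in db/db mice and 4.46, 4.67 and 4.54 in db/m mice. These groups did not overlap either, by a narrow gap, and the log2 fold change of 0.24 (standard error 0.11, limma adjusted p = 0.507) did not pass. The part of other cells, podocytes among them, in the Cldn5 value was not tested. The adhesion molecules Esam and Icam2 had log2 fold changes of 0.10 and -0.02, and Mmrn2, a protein of the vessel matrix, had 0.10. Egfl7, a factor that endothelium secretes, had 0.04, and Eng, a co-receptor of TGF-beta, had 0.0095 with the smallest pooled SD of the 42. Over all 12, log2 fold changes had a median of 0.0036, and the 95% interval of 11 lay within 1.5-fold either way, Robo4 being the exception. For 31 of all 42 genes (73.8%) it lay within 1.5-fold, as it did for 83.5% of all genes, and for 40 (95.2%) within 2-fold, as for 97.9% of all genes.

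None of the 3 receptor genes of the VEGF family passed the test, and their groups overlapped. Kdr, which encodes the main signalling receptor VEGFR2, had signals of 7.83, 7.99 and 7.77 in db/db mice and 8.08, 8.15 and 7.86 in db/m mice. The groups overlapped, and the log2 fold change was -0.16 with a 95% interval of -0.43 to 0.10. Flt1, which encodes VEGFR1, a receptor that also binds VEGF without strong signalling, averaged 7.24 ± 0.11 in db/db mice and 7.25 ± 0.09 in db/m mice (SD, n = 3 each). Flt4, which encodes VEGFR3 for the lymphatic ligands, averaged 5.63 ± 0.21 in db/db mice and 5.75 ± 0.10 in db/m mice (SD, n = 3 each). In the angiopoietin pathway, Tek (TIE2) had 7.57, 7.51 and 7.67 in db/db mice and 7.54, 7.49 and 7.05 in db/m mice, so that its log2 fold change of 0.22 came largely from db/m replicate 3 and was 0.07 without that mouse. Tie1, an orphan partner of TIE2, had a log2 fold change of -0.08. The ligands varied more than their receptors. Angpt2, which antagonizes TIE2 in most settings, had 5.50, 4.53 and 5.38 in db/db mice and 5.27, 4.86 and 4.15 in db/m mice, and its pooled SD of 0.55 within groups was the widest of the 42 genes. Its 95% interval, -0.32 to 1.07, does not exclude a 2-fold rise. Angpt1, the activating ligand, averaged 5.60 ± 0.11 in db/db mice and 5.45 ± 0.38 in db/m mice (SD, n = 3 each).

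All 5 endothelial transcription factors had overlapping groups. Erg averaged 6.07 ± 0.04 in db/db mice and 5.98 ± 0.19 in db/m mice, and Fli1, its ETS relative, averaged 6.81 ± 0.03 in db/db mice and 6.91 ± 0.17 in db/m mice (SD, n = 3 each). The db/db mice were tighter than the db/m mice in both. Of the SOX genes, Sox7 and Sox17 had log2 fold changes of 0.15 each and Sox18 had -0.09. The 95% intervals of all 5 lay within 1.5-fold either way.

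Genes of vascular tone held 2 of the 7 with an unadjusted p under 0.05. Edn1, which encodes the vasoconstrictor endothelin-1, had signals of 4.24, 4.32 and 4.87 in db/db mice and 3.72, 3.84 and 4.19 in db/m mice. The groups did not overlap, although the lowest db/db mouse was close to the highest db/m mouse. Its log2 fold change was 0.56 (standard error 0.18, limma adjusted p = 0.304), and without db/db replicate 3, the highest mouse, it was 0.37. Ednrb, the endothelin B receptor, which clears endothelin-1 and on endothelium couples to nitric oxide, had 7.55, 7.77 and 8.42 in db/db mice and 7.51, 8.06 and 7.75 in db/m mice, so a single mouse was high. The part of other cells, those of the collecting duct among them, in the Edn1 and Ednrb values was not tested. Calcrl, the receptor for adrenomedullin and calcitonin gene-related peptide, had 6.60, 6.46 and 6.71 in db/db mice and 6.27, 6.46 and 5.87 in db/m mice. Its log2 fold change of 0.39 (standard error 0.15, limma adjusted p = 0.407) was 0.23 without db/m replicate 3, the lowest mouse. Ramp2, the accessory protein that makes Calcrl an adrenomedullin receptor, had a log2 fold change of 0.06. S1pr1, a sphingosine 1-phosphate receptor that tightens the barrier, had 0.29 (limma adjusted p = 0.634). Nos3, the endothelial nitric oxide synthase, averaged 5.34 ± 0.20 in db/db mice and 5.35 ± 0.06 in db/m mice (SD, n = 3 each), with a 95% interval of -0.29 to 0.26.

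None of the 4 genes of clotting and leukocyte capture passed the test, and their groups overlapped. Vwf, which encodes von Willebrand factor, had 4.25, 4.11 and 4.58 in db/db mice and 4.22, 3.91 and 4.19 in db/m mice, with a log2 fold change of 0.21 that was 0.08 without db/db replicate 3. Thbd, which encodes the anticoagulant receptor thrombomodulin, had a log2 fold change of 0.02. The selectins Selp and Sele, which capture leukocytes on activated endothelium, had 0.09 and -0.12, from signals between 2.98 and 3.60 in all mice, close to or under the array median. Vwf and Selp are also made by the platelet lineage. Of the 4 platelet genes listed, all were measured, 0 passed the adjusted test and 2 were positive, and their mean signal ranged from 5.21 to 6.43 in db/db mice and from 5.23 to 5.26 in db/m mice. Their part in the Vwf value was not tested.

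The arterial genes went in both directions. Dll4, the Notch ligand of arterial and tip cells, had signals of 5.69, 5.97 and 5.30 in db/db mice and 6.15, 6.07 and 5.87 in db/m mice. The groups overlapped, and the log2 fold change of -0.38 (standard error 0.17, limma adjusted p = 0.470) was -0.20 without db/db replicate 3, the lowest mouse. Its receptor gene Notch4 had -0.15 and the Notch target Hey1 had -0.09. Of the connexins, which couple endothelial cells electrically, Gja5 (connexin 40) had 3.88, 3.74 and 3.67 in db/db mice and 3.25, 3.26 and 3.63 in db/m mice. The groups were separated by a gap that is small beside the distance of db/m replicate 3 from its own group. The signal was dim, with a db/m mean of 3.38 inside the range of the array medians, 3.36 to 3.43. The log2 fold change was 0.38 (standard error 0.13, limma adjusted p = 0.322), and connexin 40 is also made by the renin cells of the arteriole. Gja4 (connexin 37) had 0.20 (limma adjusted p = 0.580).

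Prox1 and Pdpn, both known from lymphatic endothelium, were higher in every db/db mouse, whereas Lyve1 was not. Prox1, a homeobox factor, had signals of 5.18, 5.03 and 5.36 in db/db mice and 4.48, 4.39 and 4.36 in db/m mice. The lowest db/db mouse lay well above the highest db/m mouse. Prox1 rose in db/db kidneys with a log2 fold change of 0.78 (standard error 0.12, limma adjusted p = 0.0270), or 1.72-fold, with a 95% interval of 0.52 to 1.04. In the 6 fits that leave out 1 mouse the log2 fold change stayed between 0.69 and 0.86, and the adjusted p was between 0.04997 and 0.116, under 0.05 in 1 of them (without db/db replicate 2). It was 0.0883 without db/db replicate 3. Pdpn, which encodes podoplanin, a mucin-like protein of lymphatic endothelium and of podocytes, had 6.64, 6.85 and 6.78 in db/db mice and 6.46, 6.36 and 6.35 in db/m mice. Its log2 fold change was 0.36 (standard error 0.11, limma adjusted p = 0.228), with no overlap. Lyve1, a hyaluronan receptor of lymphatic vessels that some macrophages also carry, had 3.98, 4.004 and 4.47 in db/db mice and 4.07, 4.88 and 3.74 in db/m mice. The groups overlapped and its 95% interval, -0.67 to 0.51, is wide.
Other cell types contribute to these signals, and their markers are given beside them. The 5 podocyte genes measured all had positive log2 fold changes (median 0.21), with 0 of them called. Their mean signal ranged from 6.53 to 6.65 in db/db mice and from 6.35 to 6.51 in db/m mice. All 5 genes of the thick limb and distal tubule were positive too (median 0.29, 0 called), with a mean signal from 9.68 to 9.72 in db/db mice and from 9.41 to 9.42 in db/m mice. All 5 macrophage genes were negative (median -0.21, 0 called), with a mean signal from 5.12 to 5.23 in db/db mice and from 5.35 to 5.41 in db/m mice. Of 5 T cell genes, all were negative (median -0.77, 1 called, where 0.482% of all genes were called). Their mean signal ranged from 3.25 to 3.42 in db/db mice and from 3.77 to 3.98 in db/m mice. Of 5 collecting duct genes, 4 were positive (median 0.27, 0 called), with a mean signal from 8.13 to 8.33 in db/db mice and from 7.92 to 8.15 in db/m mice. Of 6 proximal tubule genes, 3 were positive (median -0.0061, 0 called), with a mean signal from 11.16 to 11.19 in db/db mice and from 10.99 to 11.20 in db/m mice. Every db/db mouse was above every db/m mouse for 3 of the 5 podocyte genes and 3 of the 5 thick limb and distal tubule genes. This held for 1 gene each of the collecting duct and proximal tubule, and for 9.17% of all genes. Every db/db mouse was below every db/m mouse for 3 of the 5 macrophage genes, 4 of the 5 T cell genes and 7.62% of all genes. The part of these cells in the values of Prox1, Pdpn and Lyve1, or of other members, was not tested. The cell type in which Prox1 RNA rose is not known from these signals of whole tissue. By contrast, the mean over the 7 endothelial markers Pecam1, Cdh5, Kdr, Emcn, Tie1, Tek and Erg ranged from 7.52 to 7.62 in db/db mice and from 7.50 to 7.63 in db/m mice.

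**Figure D2:**
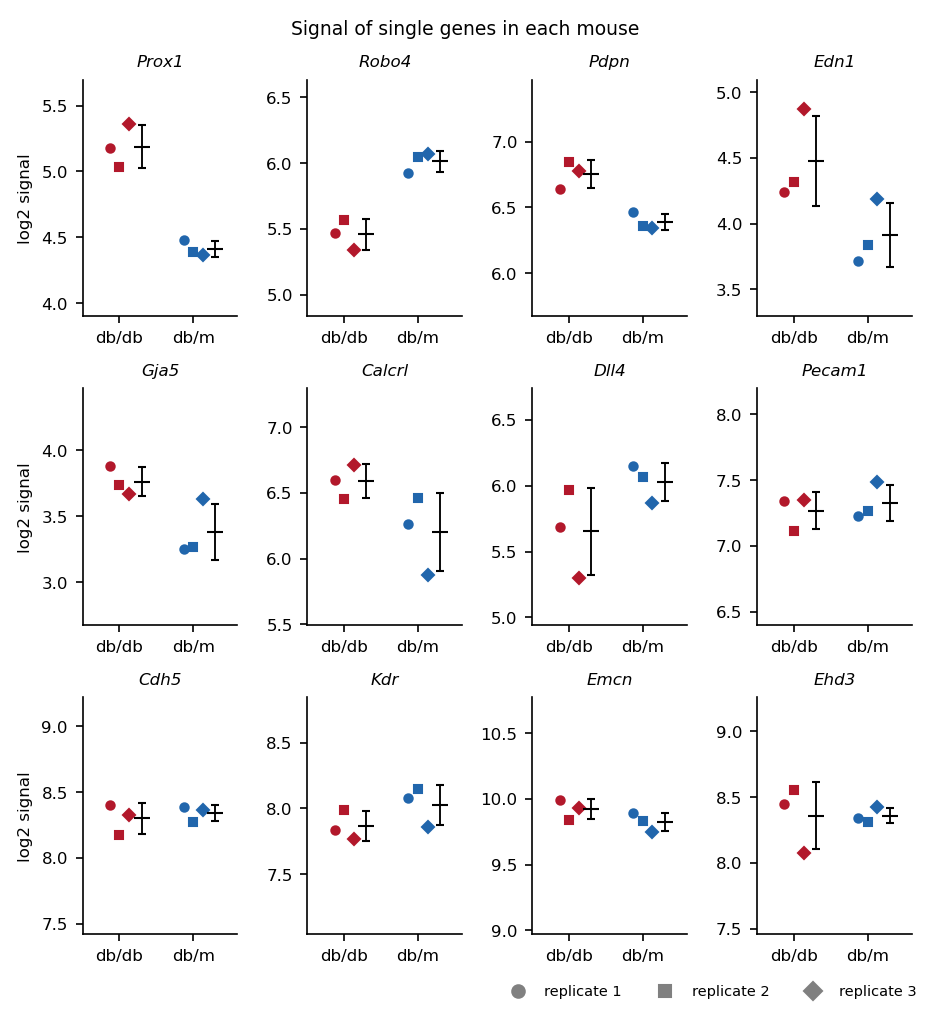
Log2 signal (y axis, each panel spanning the same range) of the 7 genes with an unadjusted p under 0.05 and of 5 markers of endothelial cells in each of the 3 db/db (red) and 3 db/m (blue) mice, with the mean and SD of each group beside the points. Prox1, Robo4 and Pdpn separate the groups by a clear gap, Edn1 and Gja5 by a narrow one, and the other panels overlap.

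The spread between mice was uneven. The pooled SD within groups had a median of 0.14 over the 42 genes, against 0.15 over all genes, and it ran from 0.05 (Eng) to 0.55 (Angpt2). After Angpt2, the widest were Lyve1 (0.46) and Ednrb (0.37). In db/db replicate 3 the 42 genes lay a median of 0.12 above their own means over the 6 mice, and in the other 5 mice the median was between -0.03 and -0.01. Of the 42 genes, 17 were highest in that mouse (40.5%), where 17.2% of all genes were. They include Edn1, Ednrb, Calcrl, Ramp2, S1pr1 and Nos3 of the vasoactive group, Vwf, Thbd and Sele, and Prox1. Robo4, Kdr, Ehd3 and Dll4 were lowest in the same mouse. In db/m replicate 3, 13 of the 42 were lowest (31.0%), where 21.0% of all genes were, among them Tek, Angpt1, Angpt2, Calcrl and S1pr1. The median log2 fold change over the 42 genes, 0.05 with all mice, was -0.0082 without db/db replicate 3 and 0.0063 without db/m replicate 1, and it was 0.0051 with all mice after quantile normalization. Of the 7 endothelial markers named above, Tek was highest in db/db replicate 3 (7.67) and Kdr lowest (7.77). The other 5 lay within the range of the other mice.

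**Figure D3:**
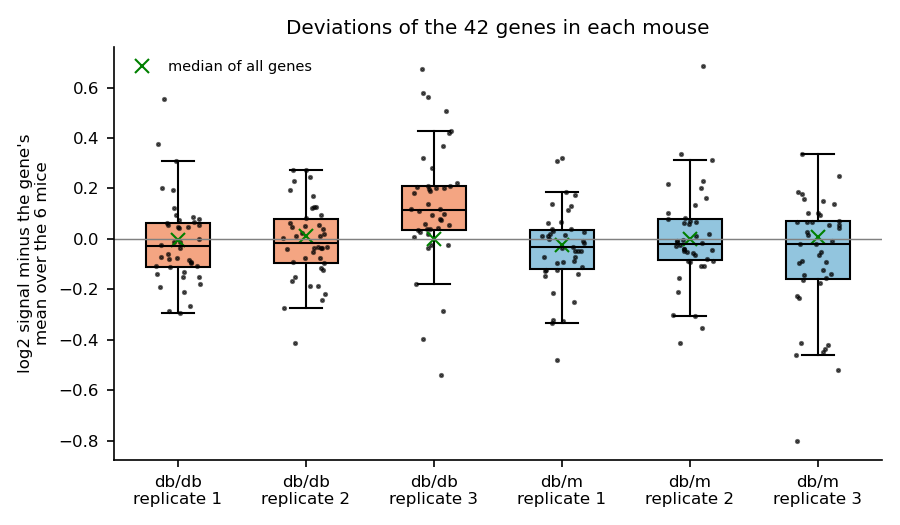
Deviation of each of the 42 genes (points) from its own mean over the 6 mice, in log2 units, in the 3 db/db (orange) and 3 db/m (blue) mice. Boxes span the quartiles with the median as a line, whiskers reach the last point within 1.5 box lengths, and green crosses give the median of all genes, and db/db replicate 3 lies above the others.

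Around these genes, 47 further genes of the same pathways were listed, of which 45 were measured. At an adjusted p under 0.05, 0 of the 45 passed in either direction (limma), where 0.482% of all genes did. An unadjusted p under 0.05 was reached by 9 upward (20%, against 5.92% of all genes) and 3 downward (6.67%, against 4.7% of all genes). Positive values were found for 32 of the 45 (71.1%, against 51.2% of all genes), with a median log2 fold change of 0.09. Without db/db replicate 3 they were found for 31, with a median of 0.07 and 8 genes (17.8%) at an unadjusted p under 0.05. In that fit 11490 of all 22180 genes were positive and 8.85% had an unadjusted p under 0.05.
The apelin pair had the most negative values. Apln, a peptide ligand of sprouting endothelium, had signals of 4.09, 4.41 and 4.53 in db/db mice and 5.21, 4.74 and 5.29 in db/m mice. Its receptor gene Aplnr had 5.17, 5.17 and 4.72 in db/db mice and 6.13, 5.61 and 5.62 in db/m mice. In both, all db/db mice were below all db/m mice. The log2 fold changes were -0.73 (standard error 0.17, limma adjusted p = 0.135) for Apln and -0.77 (standard error 0.18, limma adjusted p = 0.133) for Aplnr, and neither passed. Apelin is also made by fat cells, whose RNA was not examined here.
Among the VEGF family, Vegfa, the ligand of Kdr and Flt1, averaged 8.72 ± 0.07 in db/db mice and 8.63 ± 0.10 in db/m mice (SD, n = 3 each), with a 95% interval of -0.14 to 0.33. Vegfb had a log2 fold change of 0.09. Vegfc, a lymphatic ligand of Flt4, had -0.20. Vegfd, the other lymphatic ligand, had signals of 6.76, 6.90 and 7.12 in db/db mice and 6.22, 6.17 and 6.52 in db/m mice, without overlap, and a log2 fold change of 0.63 (standard error 0.14, limma adjusted p = 0.117). Pgf, placental growth factor, had 2.54, 3.16 and 2.45 in db/db mice and 2.24, 2.28 and 2.22 in db/m mice, all under the array median. The co-receptors Nrp1 and Nrp2 had 0.13 and -0.20.
In the hypoxia response, Hif1a had 8.41, 8.32 and 8.47 in db/db mice and 8.13, 8.18 and 7.84 in db/m mice (log2 fold change 0.35, limma adjusted p = 0.330). Egln3, a HIF prolyl hydroxylase that HIF itself induces, had 7.89, 7.98 and 8.37 in db/db mice and 7.07, 7.36 and 7.87 in db/m mice, and the groups nearly met (log2 fold change 0.65, limma adjusted p = 0.283). Epas1, which encodes HIF-2 alpha of endothelium, had -0.07. Tfpi, an inhibitor of clotting made by endothelium, had 5.83, 5.63 and 5.71 in db/db mice and 5.19, 5.34 and 5.15 in db/m mice, a log2 fold change of 0.50 (limma adjusted p = 0.117). S1pr3, Thbs1 (the angiogenesis inhibitor thrombospondin-1), Klf4 (a flow-induced factor) and Ramp1 had 0.40, 0.32, 0.33 and 0.25. Ece1, the enzyme that activates endothelin, had -0.30, opposite in sign to its substrate gene Edn1 (limma adjusted p = 0.394). Of the 9 further Notch genes, 8 were positive and 0 reached an unadjusted p under 0.05. Mesangial, pericyte and smooth muscle genes, another source of S1pr3 and Thbs1, were positive in 5 of 7 measured genes (median 0.16, 0 called), against 51.2% of all genes. For 2 of the 7, Rgs5 and Myh11, every db/db mouse was above every db/m mouse, against 9.17% of all genes. Their log2 fold changes were 0.64 (limma adjusted p = 0.0840) and 0.32 (limma adjusted p = 0.353), while Pdgfrb and Des had -0.08 and -0.23. The mean signal of the 7 ranged from 7.45 to 7.64 in db/db mice and from 7.36 to 7.46 in db/m mice. The part of these cells was not tested.

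**Figure D4:**
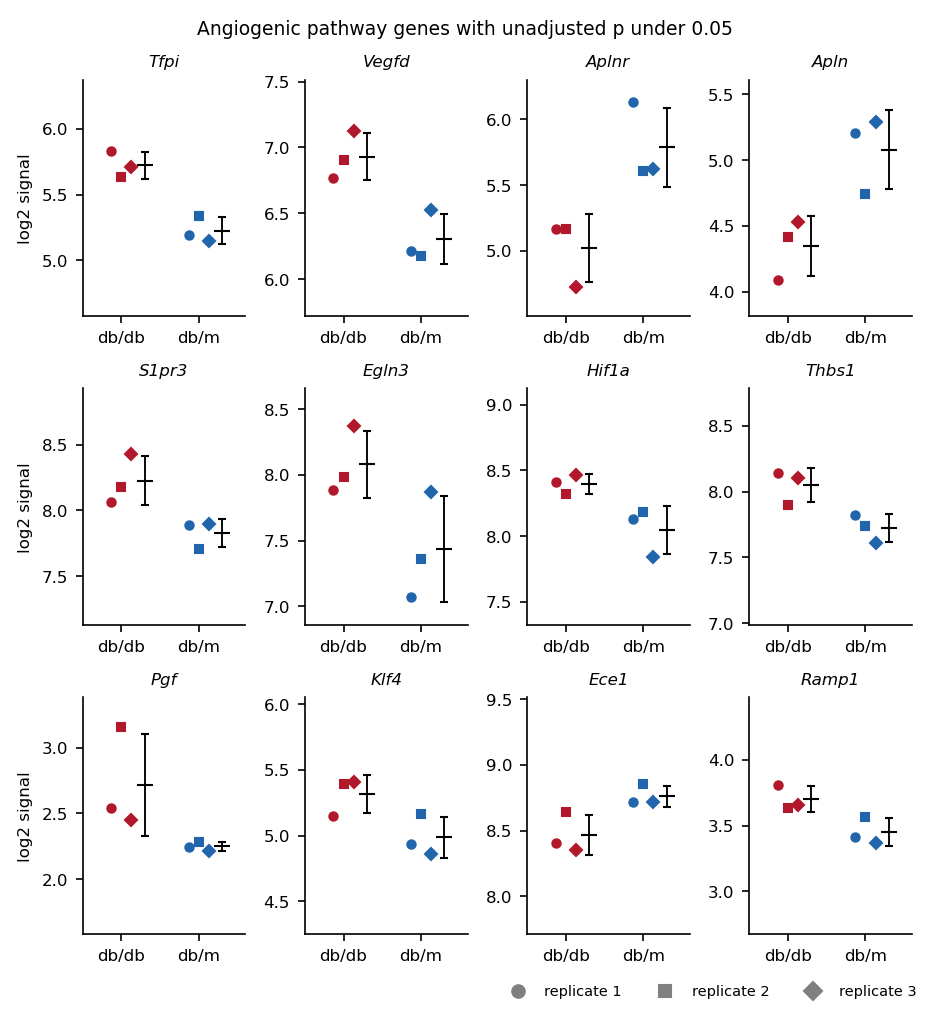
Log2 signal (y axis) of the 12 pathway genes outside the list of 42 that had an unadjusted p under 0.05, in each of the 3 db/db (red) and 3 db/m (blue) mice, with the mean and SD of each group beside the points. Aplnr, Apln and Ece1 are lower in db/db mice and the means of the other 9 are higher, and 0 of the 12 passed the adjusted test.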

How the data were processed

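Each of the 6 arrays was made from kidney RNA of a single mouse, 3 of them db/db and 3 db/m. Synthesis of cDNA started from 100 ng of total RNA. The authors deposited signals on the log2 scale, 1 per probe set and array, which the submitters' processing notes credit to RMA in Affymetrix Expression Console. Version, filters and genome build are not given in the sources used here. The labels call the arrays biological replicates. Of 41345 probe sets, 23521 name 1 gene, and the brightest of these per gene gave 22180 genes. Symbols came from the platform annotation that matches the probe-set identifiers, which belongs to another array than the methods name. The difference db/db minus db/m was fitted with limma 3.58.1 under R 4.3.3 (lmFit and eBayes without covariates), with Benjamini-Hochberg adjustment over all genes. Tests were two-sided. Errors are SDs between mice or standard errors of the log2 fold change. The fit was tested on simulated data.

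The members and lists were chosen with earlier results of these data known. Every member is named. By rule, values for each mouse are given for members that were called, for those with an unadjusted p under 0.05 and no overlap, for the highest and lowest log2 fold change and for Pecam1, Cdh5, Kdr and Emcn, and of the pathway genes for those with an unadjusted p under 0.05. Values for each mouse of Calcrl, Dll4, Cldn5, Ehd3, Tek, Angpt2, Ednrb, Vwf, Lyve1 and the platelet genes were added after their values were seen, as was the GGAA motif. Promoters came from RefSeq (GRCm38.p6). Ednra, Vash1, Ren1 and 3 red blood cell genes were not analysed here, and some listed items are not reported here. Alternatives were quantile normalization, centring, removal of probe sets dimmer than the median, other variance models, the mean over a gene's probe sets, the methods' t-test, the replicate block, an adjusted p under 0.1, and each mouse left out.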

Additional observations from a re-analysis of the deposited data

How the results depend on the processing

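The rise of Prox1 kept its sign in all 15 alternatives, with an adjusted p from 0.0196 to 0.330. Of the 42 genes, 1 was called higher in the main setting and 0 with moderation over all probe sets, 0 with the methods' t-test after Benjamini-Hochberg adjustment, 0 with the replicate block and 0 to 1 when 1 mouse was left out, where Prox1 passed only without db/db replicate 2. The lower call was 0 in the main setting and 1 (Robo4) at an adjusted p under 0.1. At the 1.5-fold threshold with an unadjusted p under 0.05, 1 gene was higher and 0 lower, also with the methods' t-test. Robo4 made it 1 lower with quantile normalization, and leaving out a mouse gave 1 to 3 higher and 0 to 1 lower, with Edn1 added when db/db replicate 1 or 2 or db/m replicate 3 was left out, and Angpt2 with db/db replicate 2 left out. The median log2 fold change over the 42 genes was 0.05 in the main setting and, with 1 mouse left out, between -0.0082 (db/db replicate 3) and 0.087 (db/db replicate 1), with 0.0063 for db/m replicate 1. With all mice it was 0.0051 after quantile normalization, close to the 0.0050 of all genes in the main setting, and between 0.03 and 0.07 in the other alternatives. Outside Prox1 and Robo4, 0 of the 42 genes changed their adjusted call in any alternative, although signs of uncalled genes near 0 differed for 1 gene with quantile normalization, 4 with centring and up to 7 without a mouse. Of the 45 pathway genes, 0 were called in any alternative.

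With the replicate number as a block, the adjusted p of Prox1 was 0.0750 and that of Robo4 0.171, with 0 genes called. Same-numbered mice of the 2 groups did not deviate together across all genes (correlations 0.04, -0.05 and -0.08). Such correlations cannot show whether the numbers stand for a pairing or batch that acts on some genes only. The log2 fold change of Prox1 was 0.78 with and without the block, with a standard error of 0.123 with it and 0.116 without it. The 3 arrays per group limit the precision of every value, and Selp, which lay under the median of all probe sets, was lost when dim probe sets were removed.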
